A study of Homo sapiens with 6 samples.

Results

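The arrays measured 315 antisense RNAs whose sense gene was also measured. They are the measured symbols of the platform annotation that end in -AS and a number and whose stem is itself a measured symbol, such as VLDLR-AS1 and VLDLR. They came from 480 antisense symbols in all, of which another 165 had no measured sense gene, and from 14884 named genes on 53617 transcript clusters, the units of the array. Each symbol is given by its brightest transcript cluster. Measured means here that the annotation gives a transcript cluster that symbol alone. Transcript clusters annotated with several symbols were left out, so a gene called not measured may still have a signal on the arrays. The 315 antisense RNAs belong to 303 sense genes, since 11 sense genes had several of them.

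The cells were MDA-MB-468, an established line of triple-negative, basal-like breast cancer. They were treated for 48 h with GapmeR#4 (3 arrays), an antisense oligonucleotide against the long noncoding RNA NRAD1 (LINC00284), or with a control GapmeR (3 arrays), at 15 nM. RNA was hybridised to Human Gene 2.0 ST arrays (Affymetrix), and values are log2 signals as the authors deposited them. All arrays come from 1 cell line and 1 active oligonucleotide, so an effect of losing NRAD1 and other effects of the oligonucleotide cannot be told apart. By their titles the samples are biological replicates, with no word on whether each was a culture of its own, and the p-values rest on the spread of these 6 samples.

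A natural antisense RNA is transcribed from the opposite strand of the gene it is named after. Some start just upstream of that gene and run away from it, in a divergent arrangement, and others start inside or beyond the gene and cross its exons. Members of the class are known to act on their sense gene by recruiting chromatin modifiers, by masking its messenger RNA or through the act of transcription itself, while for most no function is known. A GapmeR acts by a related principle: it pairs with its target RNA and directs RNase H to cut it.

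The targeted RNA had log2 signals of 2.96, 2.99 and 2.90 in GapmeR#4 cells, against 3.43, 3.46 and 4.01 in control cells. All GapmeR#4 arrays lay below all control arrays, with a change of -0.69 (SE 0.17, adjusted p = 0.0908 by limma, p = 0.1 by the exact permutation test, the smallest p that 3 against 3 arrays allow). The 6 arrays had medians between 3.96 and 4.01. Correlations were 0.988 to 0.989 among GapmeR#4 arrays, 0.988 to 0.990 among control arrays and 0.982 to 0.985 between the groups. All 7 measured markers of basal-like epithelium, KRT5, KRT14 and EGFR among them, lay above the array median on all arrays, whereas ESR1, PGR, CD14, PECAM1, VWF and DCN did not.

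Of the 315 antisense RNAs, 8 fell and 2 rose in GapmeR#4 cells at an adjusted p under 0.05 (limma, Benjamini-Hochberg over all 53617 transcript clusters). Those that fell were CCDC18-AS1, VLDLR-AS1, TMEM254-AS1, RNF217-AS1, NEBL-AS1, GLYATL1-AS1, AFAP1-AS1 and MRPL20-AS1, and those that rose were SERTAD4-AS1 and ARHGAP5-AS1. The 8 are 2.54% of the antisense RNAs and the 2 are 0.635%. Over all named genes 2.56% fell and 1.49% rose, and over all transcript clusters 1.42% fell and 1.15% rose, so the share that fell was near that of named genes. The sense genes gave 12 that fell (3.96%) and 3 that rose (0.99%).

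These calls lay close to the threshold. Leaving out any 1 of the 6 arrays left 0 to 2 of the 10 called. The share of all named genes called in those fits was not counted. The methods' t-test after adjustment called none, beside 3 of all 14884 named genes. By limma, 62 antisense RNAs had an unadjusted p under 0.05. These are 19.7% of the class, beside 23.1% of all named genes, with 38 lower and 24 higher (12.6% and 10.5% of named genes).

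As a class the antisense RNAs had 170 negative and 145 positive changes. Their median change was -0.02 on the log2 scale, with quartiles of -0.18 and 0.13 and a range from -1.05 to 1.14. All named genes had a median of 0.0026, the sense genes of -0.0017, the 165 antisense RNAs with no measured sense gene of -0.02, and the 458 LINC RNAs, intergenic long noncoding RNAs, of 0.02. The groups of arrays did not overlap for 79 antisense RNAs (25.1%), against 32.3% of all named genes and 37.3% of the sense genes. A part of the class was dim: 119 antisense RNAs lay above the array median on all arrays, against 9663 of the 14884 named genes. The share of dim transcripts moves with these counts, and its part in them was not tested.

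**Figure D1:**
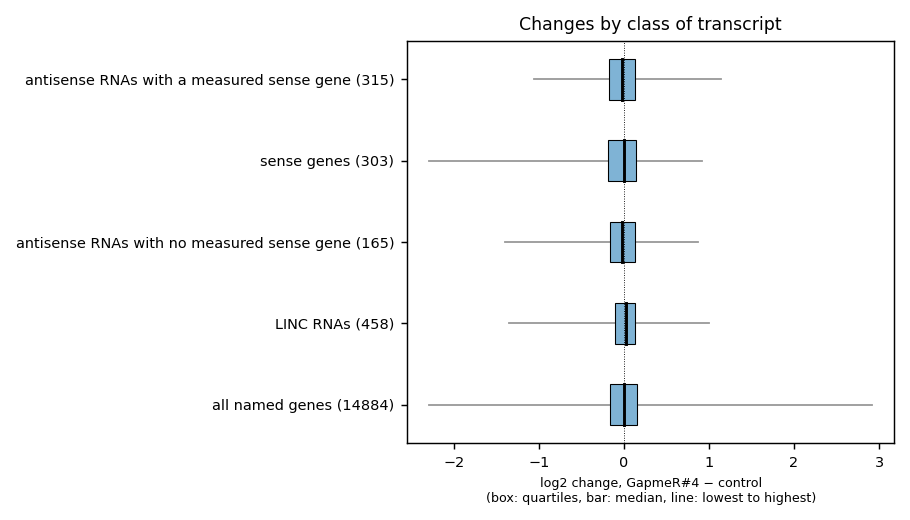
Change of each class of transcript (log2, GapmeR#4 minus control) along the x axis, with the number of genes in parentheses; boxes span the quartiles, the bar is the median and the line runs from the lowest to the highest change. The 5 medians lie between -0.02 and 0.02, and the antisense RNAs range from -1.05 to 1.14.

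Both partners passed the test in 2 pairs, and both fell. NEBL-AS1 missed the threshold with median centring (adjusted p = 0.0547 by limma) and with quantile normalization (adjusted p = 0.0556). NEBL-AS1 starts 101 bases downstream of the start of NEBL, so that it crosses that start on the other strand. NEBL is the gene of nebulette, an actin-binding protein related to nebulin. The antisense RNA had log2 signals of 4.25, 4.42 and 3.95 in GapmeR#4 cells, against 5.20, 5.07 and 4.81 in control cells. NEBL had 5.63, 5.52 and 5.28 in GapmeR#4 cells, against 6.22, 6.39 and 6.54 in control cells. The groups did not overlap for either RNA. The antisense RNA fell by 0.82 (SE 0.16, adjusted p = 0.0486 by limma) and NEBL fell by 0.91 (SE 0.14, adjusted p = 0.0252). The difference between these changes was 0.09 ± 0.22 (SE, p = 0.9 by the exact permutation test), so no difference between the partners was detectable with 3 arrays a group.

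VLDLR-AS1 is paired with VLDLR, the very-low-density lipoprotein receptor, which binds lipoproteins and reelin. The antisense RNA had 4.35, 4.28 and 3.90 in GapmeR#4 cells, against 5.31, 5.11 and 4.99 in control cells. VLDLR had 7.80, 7.79 and 7.48 in GapmeR#4 cells, against 8.32, 8.33 and 8.37 in control cells. All GapmeR#4 values lay below all control values for both. The antisense RNA fell by 0.96 (SE 0.15, adjusted p = 0.0299 by limma) and VLDLR fell by 0.65 (SE 0.12, adjusted p = 0.0414). The antisense change was the larger of the pair by 0.31 ± 0.11 (SE, p = 0.1 by the exact permutation test). A dimmer transcript cluster of VLDLR-AS1 changed by -0.52 (adjusted p = 0.118 by limma).

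The promoter windows of both pairs, from 250 bases before to 50 after each start, are shown because both partners passed the test. The windows come from RefSeq (GRCh38.p14) and run 5′ to 3′ on the strand of the transcript, with GC boxes (GGGCGG or its complement CCGCCC) in capitals. The NEBL windows are chr10:21173740-21174039 on the plus strand for the antisense RNA and chr10:21174042-21174341 on the minus strand for NEBL, with starts 101 bases apart. The VLDLR windows are chr9:2622324-2622623 on the minus strand for the antisense RNA and chr9:2621537-2621836 on the plus strand for VLDLR, with starts 586 bases apart.
NEBL-AS1: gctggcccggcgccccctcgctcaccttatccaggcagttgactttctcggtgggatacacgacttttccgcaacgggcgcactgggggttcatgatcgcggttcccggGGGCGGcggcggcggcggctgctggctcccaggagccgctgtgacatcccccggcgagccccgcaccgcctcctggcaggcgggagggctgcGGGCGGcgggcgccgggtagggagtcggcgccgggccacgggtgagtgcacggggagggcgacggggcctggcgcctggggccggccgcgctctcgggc
NEBL: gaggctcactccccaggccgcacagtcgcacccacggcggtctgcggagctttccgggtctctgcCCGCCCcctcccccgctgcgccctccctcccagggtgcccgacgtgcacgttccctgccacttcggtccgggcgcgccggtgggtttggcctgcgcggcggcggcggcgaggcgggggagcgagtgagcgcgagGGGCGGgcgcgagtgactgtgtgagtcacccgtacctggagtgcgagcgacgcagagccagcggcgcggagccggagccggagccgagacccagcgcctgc
VLDLR-AS1: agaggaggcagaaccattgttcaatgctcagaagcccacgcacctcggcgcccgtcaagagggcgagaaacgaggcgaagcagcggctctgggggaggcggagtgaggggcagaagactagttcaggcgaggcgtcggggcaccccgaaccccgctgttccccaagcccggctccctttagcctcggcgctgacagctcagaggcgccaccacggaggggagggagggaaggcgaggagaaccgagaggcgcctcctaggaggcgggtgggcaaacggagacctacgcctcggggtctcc
VLDLR: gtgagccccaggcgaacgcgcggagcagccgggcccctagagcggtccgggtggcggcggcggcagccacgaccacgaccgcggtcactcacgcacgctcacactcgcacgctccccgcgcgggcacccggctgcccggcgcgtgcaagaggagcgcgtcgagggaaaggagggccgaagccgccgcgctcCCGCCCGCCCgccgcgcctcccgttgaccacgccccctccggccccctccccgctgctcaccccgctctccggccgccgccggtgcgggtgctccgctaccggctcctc

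The windows of NEBL-AS1 and NEBL hold 2 GC boxes each, and that of VLDLR holds 2, while that of VLDLR-AS1 holds none. Their GC content is 76.3% for NEBL-AS1, 76.0% for NEBL, 67.3% for VLDLR-AS1 and 79.0% for VLDLR. A GC box stands in 44.9% of the 34943 promoter windows of the RefSeq table. None of the 4 windows holds the letters CCAAT (either strand, in 34.6% of all windows) or TATAAA (either strand, in 11.6%).

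RNF217-AS1 likewise starts inside its sense gene, 482 bases downstream of the start, but only the antisense RNA passed the test. RNF217 is an E3 ubiquitin ligase. The antisense RNA had 4.32, 4.38 and 4.45 in GapmeR#4 cells, against 4.99, 5.29 and 5.51 in control cells, and fell by 0.88 (SE 0.15, adjusted p = 0.0328 by limma). RNF217 had 6.11, 6.14 and 5.97 in GapmeR#4 cells, against 5.94, 6.07 and 6.08 in control cells, with groups that overlapped and a change of 0.04 (SE 0.10, adjusted p = 0.886), which came to -0.0024 without control array 1. The difference of -0.93 ± 0.14 (SE) had the smallest p of 0.1 by the exact permutation test. As for each pair with a called partner, the choice rested on these same arrays, so this p is not independent of it. The windows are shown for contrast with those above, at chr6:124962978-124963277 on the minus strand for the antisense RNA and chr6:124962295-124962594 on the plus strand for RNF217.
RNF217-AS1: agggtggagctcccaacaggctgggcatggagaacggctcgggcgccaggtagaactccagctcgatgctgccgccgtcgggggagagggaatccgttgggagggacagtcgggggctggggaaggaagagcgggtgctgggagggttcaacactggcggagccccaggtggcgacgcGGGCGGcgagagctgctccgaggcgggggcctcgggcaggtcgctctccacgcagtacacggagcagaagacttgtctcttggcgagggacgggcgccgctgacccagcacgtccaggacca
RNF217: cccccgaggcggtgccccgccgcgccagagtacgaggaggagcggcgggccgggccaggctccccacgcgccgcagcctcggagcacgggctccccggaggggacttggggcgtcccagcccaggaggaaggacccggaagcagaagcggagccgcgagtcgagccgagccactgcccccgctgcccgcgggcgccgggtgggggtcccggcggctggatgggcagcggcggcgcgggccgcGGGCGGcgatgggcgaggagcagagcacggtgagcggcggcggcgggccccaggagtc

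Each of these windows holds 1 GC box, and neither holds CCAAT or TATAAA. Their GC content is 69.3% for RNF217-AS1 and 80.3% for RNF217. The windows of ARHGAP5-AS1 and ARHGAP5, which rose by similar amounts, hold 2 and 1 GC boxes, and the antisense window also holds CCAAT 2 times. Those of TMEM254-AS1 and TMEM254, of which only the antisense RNA passed the test, hold 2 GC boxes each and no CCAAT. Any link between these boxes and the changes was not tested.

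TMEM254-AS1 gave a similar picture, starting 170 bases downstream of the start of TMEM254, a small transmembrane protein. The antisense RNA had 3.31, 3.88 and 3.44 in GapmeR#4 cells, against 4.27, 4.53 and 4.61 in control cells, and fell by 0.93 (SE 0.17, adjusted p = 0.0443 by limma). TMEM254 had 5.23, 5.24 and 5.24 in GapmeR#4 cells, against 5.53, 5.27 and 5.32 in control cells. That is a change of -0.14 (SE 0.11, adjusted p = 0.595), in groups that did not overlap but lay close together. The antisense change was lower by 0.79 ± 0.25 (SE, p = 0.1 by the exact permutation test).

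Opposite signs within a pair were seen for 4 of the 8 antisense RNAs that fell, CCDC18-AS1, RNF217-AS1, AFAP1-AS1 and MRPL20-AS1, although none of their sense genes passed the test. AFAP1-AS1, a long noncoding RNA described as raised in several carcinomas, had 6.79, 6.86 and 6.72 in GapmeR#4 cells, against 7.27, 7.39 and 7.48 in control cells. It fell by 0.59 (SE 0.11, adjusted p = 0.0392 by limma). AFAP1, an actin filament-associated adaptor of Src, had 7.13, 7.09 and 7.09 in GapmeR#4 cells, against 6.73, 6.81 and 6.52 in control cells. Here the GapmeR#4 values were all above the control values, with a change of 0.41 (SE 0.11, adjusted p = 0.110). The antisense minus sense value was -0.33, -0.23 and -0.37 in GapmeR#4 cells, against 0.54, 0.58 and 0.96 in control cells, a difference of -1.002 ± 0.142 (SE, p = 0.1 by the exact permutation test).

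MRPL20-AS1 had 4.82, 4.95 and 4.96 in GapmeR#4 cells, against 5.58, 5.53 and 5.35 in control cells, and fell by 0.57 (SE 0.11, adjusted p = 0.0461 by limma). MRPL20, a protein of the large mitochondrial ribosomal subunit, had 6.58, 6.80 and 6.65 in GapmeR#4 cells, against 6.41, 6.45 and 6.25 in control cells, a change of 0.31 (SE 0.11, adjusted p = 0.222). The groups did not overlap for either. The difference within the pair was -0.88 ± 0.05 (SE, p = 0.1 by the exact permutation test). The nearest coding start on the other strand is not that of MRPL20, 7763 bases away, but that of CCNL2, a cyclin linked to splicing, at 195 bases. CCNL2 changed by -0.22 (adjusted p = 0.394 by limma).

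CCDC18-AS1 changed most among the antisense RNAs that fell. It had 3.75, 4.18 and 3.89 in GapmeR#4 cells, against 4.82, 5.15 and 5.01 in control cells, and fell by 1.05 (SE 0.15, adjusted p = 0.0221 by limma), which is 2.07-fold. CCDC18, a coiled-coil protein, had 8.49, 8.10 and 8.16 in GapmeR#4 cells, against 7.75, 8.21 and 8.57 in control cells. These overlapped (change 0.08, SE 0.22, adjusted p = 0.907), and leaving out GapmeR#4 array 1 or control array 1 turned the sign of the change to -0.05 and -0.14. The listed starts of CCDC18-AS1 and CCDC18 are 165087 bases apart. The start of DR1, which was not measured under that symbol, is 96 bases away.

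GLYATL1-AS1 fell with a sense gene that missed the threshold. It had 5.03, 4.93 and 4.77 in GapmeR#4 cells, against 5.55, 5.58 and 5.76 in control cells, a fall by 0.72 (SE 0.12, adjusted p = 0.0304 by limma). GLYATL1, an acyltransferase that conjugates amino acids, had 3.24, 3.57 and 3.28 in GapmeR#4 cells, against 3.76, 3.92 and 3.60 in control cells. Its groups did not overlap, and its change was -0.40 (SE 0.14, adjusted p = 0.199). The changes differed by -0.32 ± 0.19 (SE, p = 0.3 by the exact permutation test).

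Both antisense RNAs that rose belong to sense genes with positive changes. ARHGAP5-AS1 had 6.87, 6.93 and 6.90 in GapmeR#4 cells, against 6.32, 6.43 and 6.28 in control cells, and rose by 0.55 (SE 0.10, adjusted p = 0.0366 by limma). ARHGAP5, a GTPase-activating protein, had 8.47, 8.50 and 8.54 in GapmeR#4 cells, against 7.85, 7.90 and 8.13 in control cells. Its change of 0.55 (SE 0.11, adjusted p = 0.0534) had almost the same size. The starts are 605 bases apart, and the changes differed by 0.006 ± 0.12 (SE, p = 1.0 by the exact permutation test).

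SERTAD4-AS1 had 6.02, 5.76 and 5.83 in GapmeR#4 cells, against 5.13, 5.00 and 4.82 in control cells, and rose by 0.88 (SE 0.13, adjusted p = 0.0225 by limma). SERTAD4, a protein with a SERTA domain, had 7.55, 7.32 and 7.33 in GapmeR#4 cells, against 7.11, 7.08 and 7.23 in control cells, a change of 0.26 (SE 0.11, adjusted p = 0.300). The groups did not overlap for either gene. The antisense change was the larger by 0.63 ± 0.13 (SE, p = 0.1 by the exact permutation test), with starts 1089 bases apart.

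**Figure D2:**
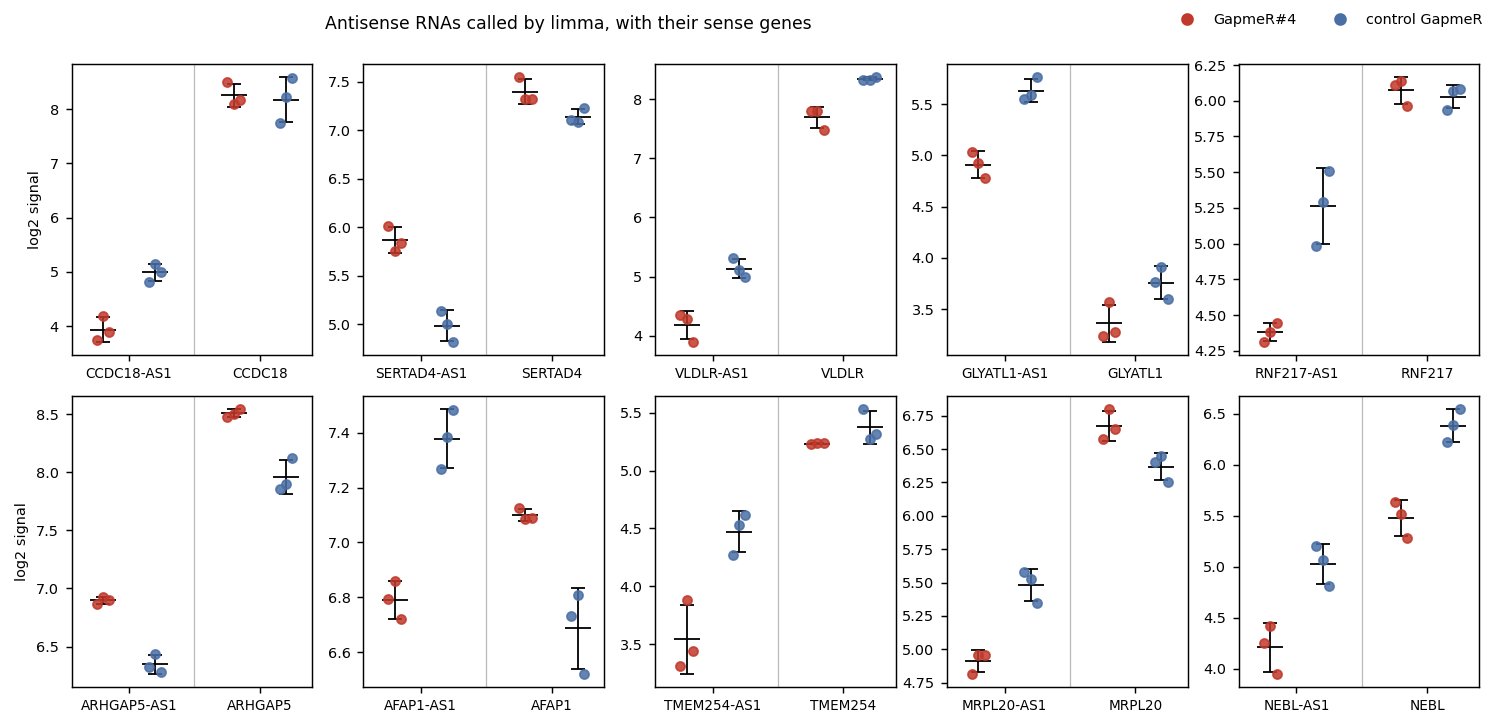
Log2 signal (y axis) of the 10 antisense RNAs called by limma, each on the left of its panel with its sense gene on the right; points are the 3 arrays of GapmeR#4 (red) and of control (blue), with mean and SD. The red and blue points are separate for all 10 antisense RNAs, while those of CCDC18 and RNF217 overlap; the heights of different transcripts are not comparable.

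In 4 of the called antisense RNAs, NEBL-AS1, VLDLR-AS1, TMEM254-AS1 and SERTAD4-AS1, the symbol also stands in a table of genes that the study selected on these samples, so that their direction is not independent evidence.

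The largest positive change did not pass the test. IDI2-AS1 had 4.73, 5.27 and 5.93 in GapmeR#4 cells, against 4.10, 4.17 and 4.23 in control cells, a change of 1.14 (SE 0.27, adjusted p = 0.0859 by limma). The 3 GapmeR#4 arrays were spread over more than a unit of log2, while the control arrays lay close together. IDI2, an isopentenyl-diphosphate isomerase of the isoprenoid pathway, changed by 0.56 (adjusted p = 0.215), with values of 3.66, 4.04 and 3.91 in GapmeR#4 cells, against 2.91, 3.62 and 3.40 in control cells. The SMAD5-AS1 values were 3.75, 3.48 and 3.66 in GapmeR#4 cells, against 3.09, 3.24 and 3.04 in control cells, a change of 0.51 (adjusted p = 0.0756). SMAD5, a signal transducer of bone morphogenetic proteins, changed by 0.28 (adjusted p = 0.299).

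The antisense and sense arrays separated in opposite directions for ZNF790-AS1, SH3PXD2A-AS1 and ARRDC3-AS1, with no partner past the test. SH3PXD2A-AS1 had 7.15, 6.96 and 6.88 in GapmeR#4 cells, against 6.70, 6.35 and 6.41 in control cells (change 0.51, adjusted p = 0.106 by limma). SH3PXD2A, a scaffold protein of invadopodia, had 5.44, 5.37 and 5.31 in GapmeR#4 cells, against 6.17, 5.70 and 5.79 in control cells (change -0.51, adjusted p = 0.121). The difference within this pair, for which it was chosen, was 1.02 ± 0.06 (SE). ZNF790-AS1 changed by 0.55 (adjusted p = 0.0769) and ZNF790, a zinc finger gene, by -0.32 (adjusted p = 0.172), a difference of 0.87 ± 0.10 (SE). For ARRDC3-AS1 the sign was the other way, with -0.60 for the antisense RNA (adjusted p = 0.197) and 0.43 for ARRDC3, an arrestin-domain protein (adjusted p = 0.122). That pair starts 250 bases apart and differed by -1.02 ± 0.21 (SE), a difference for which it too was chosen.

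Seen from the sense genes, 15 of the 303 passed the test, in 16 pairs, and only NEBL and VLDLR had an antisense RNA that passed as well. These calls were also near the threshold. Fits without 1 array called 1 to 4 sense genes lower and 0 to 2 higher in all. The methods' t-test after adjustment called 0, beside 3 of all 14884 named genes. LEMD1, a gene of the LEM domain family known as a cancer-testis antigen, showed the greatest change of all sense genes, with 3.88, 3.61 and 3.75 in GapmeR#4 cells, against 6.16, 6.30 and 5.66 in control cells. It fell by 2.29 (SE 0.18, adjusted p = 0.0071 by limma), or 4.89-fold. LEMD1-AS1 had 2.38, 2.67 and 2.68 in GapmeR#4 cells, against 2.78, 2.92 and 2.57 in control cells, values that overlapped and lay below the array median (change -0.18, SE 0.14, adjusted p = 0.580). The changes differed by 2.11 ± 0.19 (SE), a value that chose this pair and carries no test.

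Other sense genes that fell also had antisense RNAs that did not pass. NAALADL2-AS3, GPC6-AS2, MAMDC2-AS1 and TRHDE-AS1 lay above the array median on 0 arrays, like LEMD1-AS1, so a fall of these RNAs may not be detectable. NAALADL2, related to glutamate carboxypeptidases, fell by 1.33 (adjusted p = 0.0269 by limma) beside a change of -0.20 for NAALADL2-AS3 (adjusted p = 0.464). SAMD12 fell by 1.18 (adjusted p = 0.0079) beside -0.21 for SAMD12-AS1 (adjusted p = 0.647), which lay above the array median on all arrays. GPC6, a glypican of the cell surface, fell by 1.03 (adjusted p = 0.0368) beside 0.30 for GPC6-AS2 (adjusted p = 0.271), and CIRBP, the cold-inducible RNA-binding protein, fell by 0.79 (adjusted p = 0.0457) beside 0.21 for CIRBP-AS1 (adjusted p = 0.425). MAMDC2 fell by 1.03, NCAM1 by 0.70, SBF2 by 0.61 and TRHDE by 0.54, beside antisense changes between -0.17 and 0.14. TRHDE too lay above the array median on 0 arrays, yet it passed the test (adjusted p = 0.0474 by limma). The part of a dim signal in the missing antisense calls was not tested.

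In the LPP pair the starts lie close together and only the sense gene passed the test. LPP, a LIM protein of focal adhesions, had 3.86, 4.00 and 3.70 in GapmeR#4 cells, against 4.69, 4.83 and 4.62 in control cells, and fell by 0.86 (adjusted p = 0.0212 by limma). LPP-AS2, whose start is 69 bases away, had 5.67, 5.28 and 5.03 in GapmeR#4 cells, against 5.51, 5.56 and 5.58 in control cells. These overlapped (change -0.22, adjusted p = 0.576), and the difference within the pair was 0.64 ± 0.18 (SE, p = 0.1 by the exact permutation test). LPP was called on these same arrays, so the difference is not independent of the choice of the pair.

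Of the 3 sense genes that rose, SOCS2, a suppressor of cytokine signalling, had 5.26, 5.03 and 5.47 in GapmeR#4 cells, against 4.61, 4.35 and 4.05 in control cells (change 0.91, adjusted p = 0.0486 by limma). SOCS2-AS1 changed by 0.16 (adjusted p = 0.661). FRMD6, a FERM protein upstream of the Hippo pathway, rose by 0.86 (adjusted p = 0.0124), beside 0.31 for FRMD6-AS1 and 0.12 for FRMD6-AS2 (adjusted p = 0.349 and 0.673). NIFK, a nucleolar partner of Ki-67, rose by 0.72 (adjusted p = 0.0232), beside 0.13 for NIFK-AS1 (adjusted p = 0.717).

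**Figure D3:**
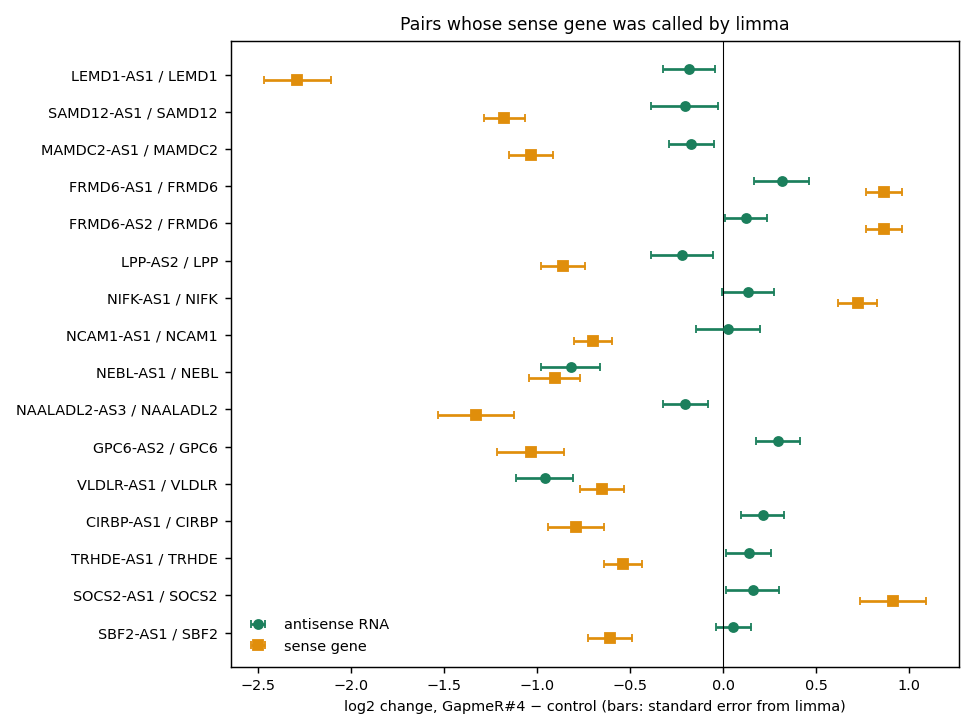
Log2 change (x axis, GapmeR#4 minus control) of the antisense RNA (circles) and the sense gene (squares) in the 16 pairs whose sense gene was called by limma; bars are standard errors. The 2 circles below -0.8 are NEBL-AS1 and VLDLR-AS1, and the other 14 lie between -0.22 and 0.31.

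Over all 315 pairs the 2 partners changed in the same direction in 180 (57.1%), with 97 pairs lower and 83 higher for both. The antisense RNA alone was lower in 73 and the sense gene alone in 62. Given how many of each were positive and negative, 50.04% would have the same sign. Pearson's r between the changes was 0.19 and Spearman's rank correlation 0.18 across pairs, which share the arrays, and some of which share a sense gene, so they are not independent.

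The agreement was greater among pairs with neighbouring starts. RefSeq listed the starts of both partners for 218 pairs, on opposite strands in all 218. In the 82 pairs with starts within 1 kb, 54 had the same direction (65.9%, with 48.1% from the counts of signs), with r = 0.43 and a rank correlation of 0.35. The other 136 pairs gave 71 with the same direction (52.2%, with 50% from the counts of signs), r = 0.14 and a rank correlation of 0.09. Without VLDLR-AS1 and NEBL-AS1 the close pairs gave 65.0% of 80, with both correlations at 0.31. Of the 28 close pairs with opposite signs, 22 had the antisense RNA lower and the sense gene higher, and 6 the reverse. The antisense start lay downstream of the sense start in 37 close pairs, 26 of them with the same direction (70.3%), and upstream in 45, with 28 (62.2%). Pairs with both partners above the array median on all arrays showed the same order, with 63.6% of 33 close pairs and 53.8% of 39 others. The differences between close and distant pairs and between the arrangements were not tested.

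**Figure D4:**
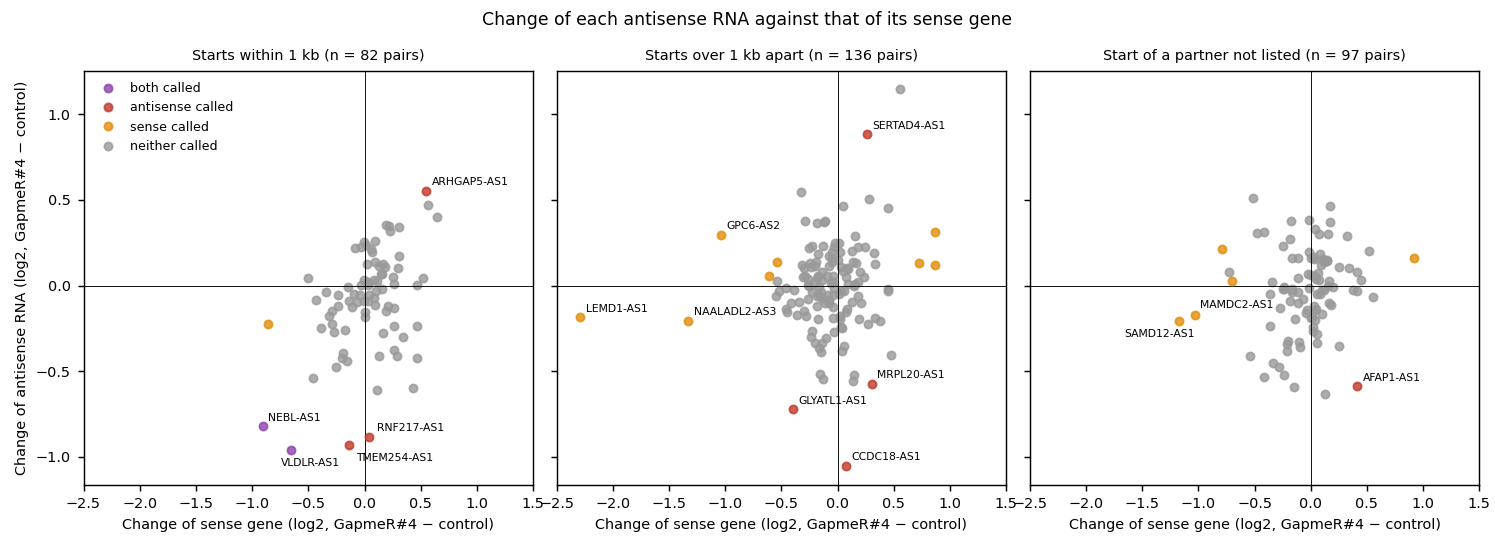
Change of each antisense RNA (y axis) against that of its sense gene (x axis), both log2, GapmeR#4 minus control; 1 point per pair, in panels by the distance between the RefSeq starts. Among the 82 close pairs r is 0.43, and among the 136 others with listed starts it is 0.14; NEBL-AS1 and VLDLR-AS1 lie at the lower left of the first panel.

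A further 26 antisense RNAs start within 1 kb of a coding gene other than the one they are named after. Of these neighbours 16 were measured. IRAG1-AS1 starts 49 bases from RNF141, a RING finger gene that fell by 0.89 (adjusted p = 0.0232 by limma), yet changed by -0.03 itself (adjusted p = 0.936). ASB16-AS1 and its neighbour TMUB2, 255 bases away, changed by -0.59 and -0.31. These examples, like those in the next paragraph, were chosen after their values were seen.

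Where 1 sense gene has several antisense RNAs, these could differ. BABAM2-AS1 had a change of -0.54 (adjusted p = 0.0552 by limma) and BABAM2-AS2 of 0.31 (adjusted p = 0.290), beside -0.41 for BABAM2, a subunit of the BRCA1-A complex (adjusted p = 0.138). ZNF503-AS1 changed by -0.52 (adjusted p = 0.114) and ZNF503-AS2 by 0.07 (adjusted p = 0.870). The ZNF503-AS1 signals were dim, at 2.30, 2.56 and 2.50 in GapmeR#4 cells, against 3.20, 2.97 and 2.77 in control cells. Other transcript clusters of ZNF503-AS1 changed by -0.29 (adjusted p = 0.544 by limma) and 0.13 (adjusted p = 0.723). Transcript clusters of 1 symbol could also differ, as for RBM26-AS1, with -0.61 on the brighter (adjusted p = 0.0767) and 0.06 on the dimmer (adjusted p = 0.925). In all, 16 antisense RNAs had more than 1 transcript cluster.

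A list of 32 antisense RNAs with a described role held 15 of the paired ones, of which AFAP1-AS1 passed the test. Over all named genes 2.56% fell and 1.49% rose, and 1 call among 15 is too few to set against these shares. Among those that did not, MNX1-AS1 changed by -0.41 (adjusted p = 0.277 by limma), MCM3AP-AS1 by -0.39 (adjusted p = 0.159), GATA3-AS1 by 0.34 (adjusted p = 0.329) and DSCAM-AS1 by 0.33 (adjusted p = 0.279). GATA3, a luminal transcription factor, changed by 0.31 (adjusted p = 0.184). A dimmer transcript cluster of GATA3-AS1 changed by -0.05 (adjusted p = 0.943 by limma). DSCAM-AS1 lay above the array median on 0 arrays. EGFR-AS1 had 4.02, 3.99 and 4.01 in GapmeR#4 cells, against 3.91, 4.09 and 4.17 in control cells (change -0.05, adjusted p = 0.867). EGFR, the growth factor receptor amplified in this line, had 10.12, 10.25 and 10.28 in GapmeR#4 cells, against 10.66, 10.62 and 10.46 in control cells (change -0.36, adjusted p = 0.142). The changes of ZEB1-AS1, FEZF1-AS1, TMPO-AS1, SBF2-AS1, GAS6-AS1, DLX6-AS1, HAND2-AS1, LEF1-AS1 and RBM5-AS1 lay between -0.16 and 0.21.

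Of 37 listed genes, mostly of double-stranded RNA handling and nuclear RNA decay, the transcripts of 23 were measured, and none passed the test by limma. The 23 include the chromatin genes EZH2 and SUZ12, while ADAR, DICER1, DROSHA and AGO2 were among those not measured. At an unadjusted p under 0.05 there were 7 (30.4%, beside 23.1% of named genes), all higher. The methods' t-test after adjustment called 0, beside 3 of all 14884 named genes. With a trend on intensity and a robust prior, limma called 2 of the 23, beside 7.69% of all named genes. The list had 22 positive changes and 1 negative, beside 7501 and 7383 of all named genes. Its median was 0.15, beside 0.0026 for all named genes. All 23 lay above the array median on all arrays, as did 9663 of the 14884 named genes, and the part of brightness was not tested. DIS3, a nuclease of the RNA exosome, changed by 0.67 (adjusted p = 0.0604), IFIH1, a sensor of double-stranded RNA, by 0.65 (adjusted p = 0.0735), and EXOSC5, a core subunit of the exosome, by 0.50 (adjusted p = 0.131).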

How the data were processed

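RNA of 6 samples (3 GapmeR#4, 3 control) was hybridised to Affymetrix Human Gene 2.0 ST arrays, 1 per sample. The authors deposited log2 signals of 53617 transcript clusters, made with Affymetrix Expression Console per the labels. The sources used here give neither its version, nor the normalization, nor a genome build. The values were used as deposited. The platform annotation names 16098 transcript clusters with 1 symbol. The other 37519, with no symbol or more than 1, were treated as unnamed here. Groups came from the labels. Precision is limited by having 3 arrays a group.

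All transcript clusters were fitted with limma 3.58.1 (R 4.3.3; lmFit and eBayes, 2-sided, Benjamini-Hochberg adjustment). Differences between partners were tested on antisense minus sense values by exact permutation (2-sided). The pairs given such a p had a partner called on the same arrays, so these p-values are not independent of the choice. Distances between starts and promoter windows came from RefSeq (GRCh38.p14), taking the closest listed starts. The scripts were tested on simulated data.

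Named were the antisense RNAs called by limma, the 6 largest changes each way and the 6 largest differences between partners among those with non-overlapping arrays, listed RNAs and the sense genes of all these. Members and lists were chosen with earlier results of these data known. Same-numbered arrays did not deviate together, so numbers were not taken as pairs.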

Additional observations from a re-analysis of the deposited data

How the results depend on the processing

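The calls were few and near the threshold, and 3 arrays a group limit them. With the replicate number as a block, 0 antisense RNAs fell and 0 rose, against 1 sense gene that fell and 0 that rose; correlations of the deviations of same-numbered arrays were -0.0645, -0.0048 and -0.0179. The methods' t-test after adjustment gave 0 for antisense RNAs and sense genes in both directions, beside 3 of all 14884 named genes. For the block and the fits without 1 array the share of all named genes was not counted. Leaving out 1 array at a time gave 0 to 2 antisense RNAs that fell, 0 to 1 that rose, 1 to 4 sense genes that fell and 0 to 2 that rose, 169 to 195 pairs with the same direction, a median antisense change of -0.03 to -0.01 and an NRAD1 change of -0.79 to -0.50. All 10 called antisense RNAs kept their direction in each of these fits. Without GapmeR#4 array 2, 2 of them stayed called, and 1 without control array 1; without any of the other 4 arrays it was 0. In the fits without 1 array their adjusted p lay between 0.0395 and 0.168.

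On the brighter 50% of transcript clusters, 13 of 153 antisense RNAs fell and 5 rose, and 10 of 235 sense genes rose. There 83 of 138 pairs had the same direction and the median was -0.057. Array weights gave 6 of 303 sense genes that rose, and an intensity trend with a robust prior gave 10. A 1.7-fold change with an unadjusted p gave 5 of 315 antisense RNAs that fell. The trend called 7.69% of all named genes in either direction. For the other settings in this paragraph that share was not counted, so their counts cannot be set against all genes. All 10 called antisense RNAs were kept with array weights, brighter transcript clusters, the trend and the mean over transcript clusters, and 9 with median centring or quantile normalization, which lost NEBL-AS1. Over the fits without 1 array, CCDC18 ranged from -0.14 to 0.27 and RNF217 from -0.0024 to 0.10. Reversed signs came for CCDC18, at -0.05 without GapmeR#4 array 1 and -0.14 without control array 1, and for RNF217, at -0.0024 without control array 1. None of these sense changes was called, and the cause was not tested.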

Other observations

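In 23 pairs both partners had an unadjusted p under 0.05 by limma. The changes had the same direction in 12 of them (52.2%, with 49.9% from the counts of signs) and opposite directions in 11. Among those in the same direction were DHRS4-AS1 at -0.54 with DHRS4, a retinal reductase, at -0.46, and ZNF674-AS1 at 0.47 with ZNF674 at 0.56. Opposite were EIF1B-AS1 at -0.42 with EIF1B, a homologue of a translation initiation factor, at 0.47, whose starts are 9 bases apart, and WAC-AS1 at -0.41 with WAC at 0.28. Except for NEBL-AS1, VLDLR-AS1, GLYATL1-AS1, AFAP1-AS1, MRPL20-AS1 and ARHGAP5-AS1 no antisense RNA of these pairs passed adjustment. The pairs were chosen after their values were seen.

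Of the 165 antisense RNAs with no measured sense gene, 5 fell at an adjusted p under 0.05 (3.03%, beside 2.56% of all named genes) and none rose by limma. At an unadjusted p under 0.05 there were 22 (13.33%, beside 23.1%). ST8SIA6-AS1 had log2 signals of 6.70, 6.73 and 6.37 in GapmeR#4 cells, against 7.91, 8.03 and 8.07 in control cells, a fall by 1.40 (adjusted p = 0.0079 by limma). The others were ELOA-AS1 at -0.99, TPT1-AS1 at -0.85, DLGAP1-AS1 at -0.79 and ZBED5-AS1 at -0.64.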
